A study of Mus musculus with 9 samples.

Results

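The genes described here are 8 enzymes of cholesterol synthesis, Hmgcs1, Mvd, Fdps, Fdft1, Sqle, Lss, Cyp51 and Dhcr7, chosen by gene symbol out of the 18349 genes counted in each library. Iris tissue of C57BL/6J mice was studied by bulk RNA-Seq after corneal alkali injury (CAI) to ask what lymphatic vessels that grow into the injured iris do to ocular inflammation. At 6 weeks of age the cornea was exposed for 60 seconds to sodium hydroxide (1 M, 0.5 μL), or to PBS in the Sham group, and irises were collected at 10 weeks.

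There were 3 groups of 3 libraries, each library pooling 3 irises: Sham mice of genotype VEGFR3 fl/fl, injured mice of that genotype, and injured mice labelled VEGFR3 iLECko, which carried Prox1-CreERT2 beside the floxed alleles. The recombinase is driven by Prox1, a marker of lymphatic endothelium, whereas the RNA came from the whole iris. Tamoxifen (80 mg/kg, days 13 to 17 after injury) was given to the knockout mice and, by the study's methods, to their floxed littermate controls as well. Both sexes were used, and p-values below measure the spread between pooled libraries, not between single mice. In whole iris RNA, fewer cells that express a gene and less of its RNA per cell cannot be told apart.

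Cholesterol is built from acetyl-CoA. Hmgcs1 acts on the way to mevalonate, Mvd makes the isoprenoid unit from which Fdps builds farnesyl diphosphate, and Fdft1 joins farnesyl units into squalene. Sqle and Lss turn squalene into lanosterol, the first sterol, and Cyp51 and Dhcr7 act on the way from lanosterol to cholesterol. The transcription factor SREBP2, encoded by Srebf2, raises these genes when sterol in the endoplasmic reticulum is low, and INSIG proteins hold it back when sterol is plentiful.

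Because 7 of these genes were called lower after injury, the stretch of 150 bases before the annotated start is shown for the 5 of 8 members, Mvd among them, that matched the RefSeq promoter table of GRCm38.p6. Capitals mark 1 form of the sterol element, TCACNCCAC, and the CCAAT box. Both were searched on both strands, so that ATTGG is a CCAAT box on the other strand. Sterol elements with other letters were not searched for and would stand in lower case. Hmgcs1 lies at chr13:119690201-119690350 (plus strand), Mvd at chr8:122443423-122443572 (minus), Lss at chr10:76531455-76531604 (plus), Cyp51 at chr5:4104698-4104847 (minus) and the last of 3 Dhcr7 starts at chr7:143830064-143830213 (plus). The same stretch before the other 2 Dhcr7 starts holds neither motif and is not shown.
Hmgcs1: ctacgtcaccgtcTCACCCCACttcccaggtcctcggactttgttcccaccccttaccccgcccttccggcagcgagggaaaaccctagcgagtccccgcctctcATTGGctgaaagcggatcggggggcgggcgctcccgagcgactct
Mvd: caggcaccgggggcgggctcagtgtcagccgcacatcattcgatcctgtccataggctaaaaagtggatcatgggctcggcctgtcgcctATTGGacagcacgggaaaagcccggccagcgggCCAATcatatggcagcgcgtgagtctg
Lss: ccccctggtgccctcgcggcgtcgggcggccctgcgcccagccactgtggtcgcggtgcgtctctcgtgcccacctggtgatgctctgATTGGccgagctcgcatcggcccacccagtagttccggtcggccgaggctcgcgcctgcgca
Cyp51: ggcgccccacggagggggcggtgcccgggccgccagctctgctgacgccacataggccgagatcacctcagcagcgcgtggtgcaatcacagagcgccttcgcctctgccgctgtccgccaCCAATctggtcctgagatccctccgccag
Dhcr7: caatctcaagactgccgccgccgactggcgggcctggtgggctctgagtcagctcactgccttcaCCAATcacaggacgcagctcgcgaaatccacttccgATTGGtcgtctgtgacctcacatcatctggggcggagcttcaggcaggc
In the full promoter windows of the table, TCACNCCAC was found for 1 of the 5 members, Hmgcs1, against 1.44% of all genes in the table. A CCAAT box was found for 5 of 5, against 41.1% of genes, and the GC box GGGCGG likewise for 5 of 5, against 38.2%. Among 11 other enzymes of the pathway, 10 held a CCAAT box, 10 a GC box and 0 TCACNCCAC. A gene was counted where the window of any of its starts held the motif. These matches describe letters only. In the stretch shown, the CCAAT box lay on both strands for Mvd, whose level did not pass the test after injury. The same held for Dhcr7, which was called lower.

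The libraries held 16617187 to 18306359 counts each. Pigment cell and smooth muscle markers, which define the iris, were high in Sham (6 pigment genes summing to 27482 to 29415 CPM, counts relative to the scaled library size), and the 2 ciliary body genes summed to at most 3.64 CPM in any library. Flt4, the gene of VEGFR3, was at 15.6, 13.4 and 14.9 CPM in Sham, 16.8, 20.7 and 23.0 CPM in injured VEGFR3 fl/fl and 27.9, 21.0 and 27.4 CPM in the libraries labelled VEGFR3 iLECko, so its count was not lower under the knockout label. The gene counts do not separate the floxed part of Flt4 from the rest. Y-linked genes (4 summed) were at 0.736 to 1.11 CPM in the 3 libraries labelled VEGFR3 iLECko and 0.804 CPM in injured VEGFR3 fl/fl replicate 3, against 51.1 to 167 CPM in the other 5 libraries, so the sex of the pooled mice differed between groups. Photoreceptor markers (5 summed) varied from 15.1 to 856 CPM, with low and high libraries in every group.

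After CAI the RNA of 7 of the 8 enzymes was lower, from an early to a final step of the pathway, by 1.72-fold for Dhcr7 to 3.05-fold for Sqle. The exception was Mvd, whose injured mean was 93.8% of Sham. A gene was called changed where it differed more than 1.5-fold with an adjusted p under 0.05, taken from the quasi-likelihood test of edgeR and adjusted by Benjamini-Hochberg over the 15010 genes tested. By that rule 7 members were called lower and 0 higher, while 17.5% of all genes tested were called lower. The median log2 fold change of the 8 was -1.14, against 0.01 over all genes tested. The groups did not overlap in the same 7 members, and 32.4% of all genes were lower without overlap. For a single gene the exact permutation test of 3 against 3 libraries cannot go below p = 0.1, two-sided, which these 7 reached.

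Hmgcs1, the earliest of the members in the pathway, stood at 257, 282 and 271 CPM in Sham, at 119, 77.9 and 105 CPM in injured VEGFR3 fl/fl and at 127, 147 and 130 CPM in the libraries labelled VEGFR3 iLECko. The 3 groups did not overlap, and the injured floxed libraries were lowest. Its log2 fold change after injury was -1.42 ± 0.14 (SE, adjusted p = 3.03e-05, edgeR). Mvd stood at 27.2, 31.9 and 25.0 CPM in Sham, 33.4, 21.0 and 24.6 CPM in injured VEGFR3 fl/fl and 25.2, 25.3 and 22.3 CPM in the labelled knockouts. Here all 3 groups overlapped, and the highest value of the 9 was that of an injured library, replicate 1. The log2 fold change of Mvd was -0.09, with a 95% interval of -0.46 to 0.28 (adjusted p = 0.649, edgeR), and its sign turned when Sham replicate 2 or injured replicate 2 was left out.

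Fdps, which makes the precursor of both sterols and prenyl groups, was at 107, 125 and 107 CPM in Sham and at 69.7, 44.7 and 43.0 CPM in injured VEGFR3 fl/fl. Its libraries labelled VEGFR3 iLECko stood at 65.0, 55.2 and 57.1 CPM, inside the range of the injured floxed ones. The log2 fold change after injury was -1.11 ± 0.18 (SE, adjusted p = 0.000516, edgeR). Fdft1, squalene synthase, was at 144, 178 and 148 CPM in Sham, 84.6, 60.2 and 64.4 CPM in injured VEGFR3 fl/fl and 82.2, 79.8 and 78.7 CPM in the labelled knockouts. Injury separated its libraries and the knockout label did not. It fell by 1.17 ± 0.13 (SE) on the log2 scale after injury (adjusted p = 6.55e-05, edgeR). Fdft1 was also the member with counts that were not whole.

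Sqle, squalene epoxidase and a control point of the later pathway, had the largest change of the 8 after injury. It stood at 216, 216 and 215 CPM in Sham, 80.6, 63.1 and 68.2 CPM in injured VEGFR3 fl/fl and 105, 105 and 101 CPM in the libraries labelled VEGFR3 iLECko. The Sham and labelled knockout libraries varied little among themselves (SD 0.727 CPM in Sham, n = 3), and the 3 groups formed separate levels. Its log2 fold change after injury was -1.61 ± 0.09 (SE, adjusted p = 9.19e-07, edgeR). Lss, which closes the sterol rings, was at 61.8, 62.7 and 57.1 CPM in Sham, 26.3, 17.5 and 23.1 CPM in injured VEGFR3 fl/fl and 28.7, 32.5 and 30.9 CPM in the labelled knockouts. It fell by 1.44 ± 0.13 (SE) on the log2 scale (adjusted p = 1.94e-05, edgeR), and again the 3 groups did not overlap.

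**Figure D1:**
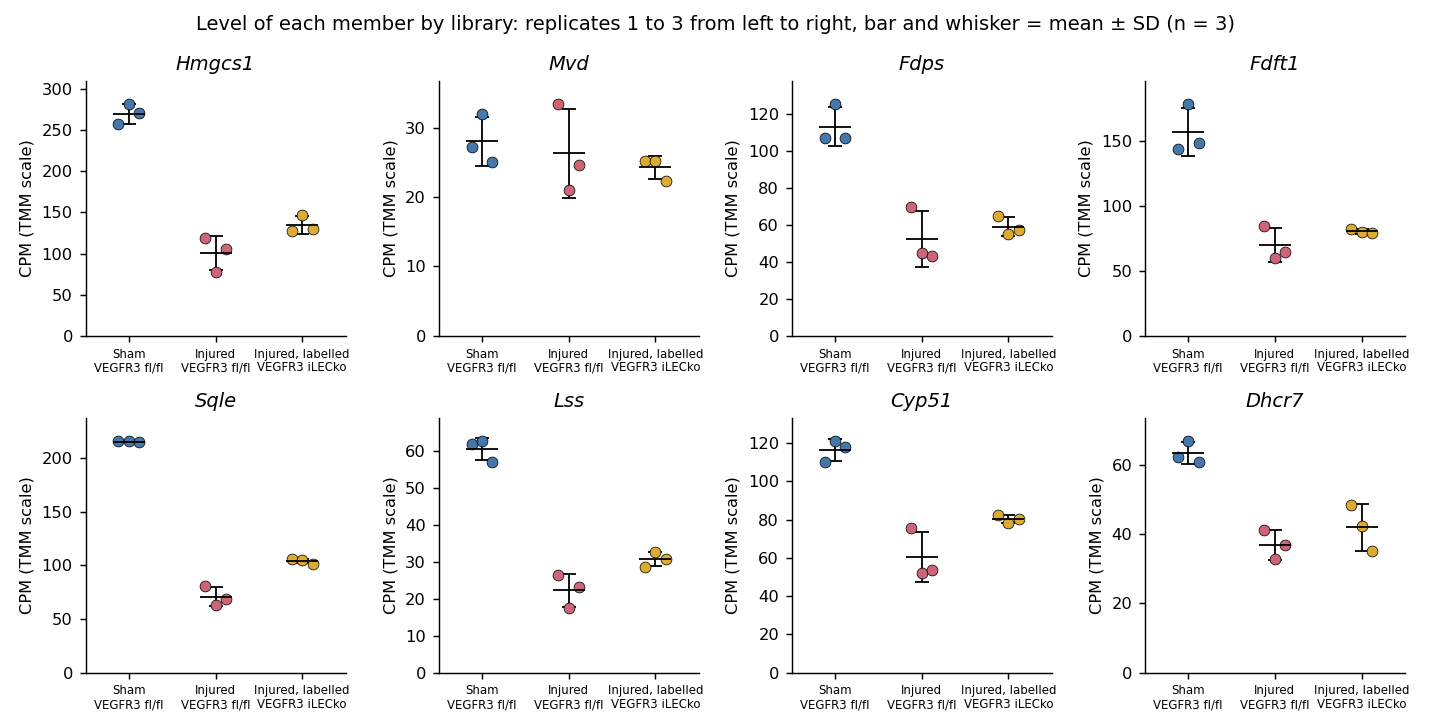
Level of each of the 8 genes in each of the 9 libraries, in CPM on the TMM scale with the axis from 0, with replicates 1 to 3 from left to right in each group and the mean ± SD (n = 3) as bar and whiskers. In 7 panels every Sham library sits above every injured one, and in the Mvd panel the groups overlap.

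Of the 7 members called, Cyp51 and Dhcr7 had the smallest changes. This was not shared by all enzymes after lanosterol. Outside the members Hsd17b7 (-1.51), Nsdhl (-1.44) and Msmo1 (-1.25) fell more on the log2 scale, and Ebp was higher (0.81). Cyp51, the lanosterol demethylase, was at 110, 121 and 118 CPM in Sham, 75.7, 51.8 and 53.7 CPM in injured VEGFR3 fl/fl and 82.3, 78.0 and 80.4 CPM in the labelled knockouts. Its log2 fold change after injury was -0.95 ± 0.13 (SE, adjusted p = 0.000247, edgeR). Dhcr7, which catalyses a final step to cholesterol, was at 62.1, 66.8 and 60.8 CPM in Sham, 41.3, 32.7 and 36.7 CPM in injured VEGFR3 fl/fl and 48.4, 42.3 and 34.9 CPM in the labelled knockouts, with a log2 fold change after injury of -0.78 ± 0.13 (SE, adjusted p = 0.000582, edgeR). Per kilobase of the longest annotated transcript, mean levels in Sham ran from 78.0 CPM per kb for Hmgcs1 through 48.2 for Sqle and 42.4 for Fdft1 down to 15.3 for Mvd and 8.66 for Lss. In injured VEGFR3 fl/fl irises Hmgcs1 was still first, at 29.1 CPM per kb, and Sqle stood at 15.8, beside Mvd at 14.4. The lengths taken ran from 1833 bases for Mvd to 6992 bases for Lss. This order rests on those lengths, and shorter transcripts of each gene were not tried.

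In the injured libraries labelled VEGFR3 iLECko, 7 of the 8 enzymes had higher means than in injured VEGFR3 fl/fl, by 1.13-fold for Fdps to 1.47-fold for Sqle, and none was called. Sqle alone had an adjusted p under 0.05 by edgeR (log2 fold change 0.56, 95% interval 0.36 to 0.76, adjusted p = 0.0294, edgeR), and it stayed under the 1.5-fold limit. Over all genes 0.813% were higher at that adjusted p, and 0.573% were called higher. At an unadjusted p under 0.05, 4 members were higher, Hmgcs1, Sqle, Lss and Cyp51, and these were also the 4 whose groups did not overlap, where 12% and 12.4% of all genes were higher by those 2 measures. The log2 differences were 0.42 for Hmgcs1, 0.46 for Lss and 0.41 for Cyp51 (adjusted p = 0.126, 0.0954 and 0.116, edgeR). By DESeq2 these 3 also had an adjusted p under 0.05 (0.046, 0.0269 and 0.0438), as did Sqle (1.19e-06), and all 4 stayed under the fold limit, so that 0 members were called. Fdps, Fdft1 and Dhcr7 had log2 differences of 0.17 to 0.20 with intervals that include 0, and Mvd had -0.12, which became 0.10 without injured replicate 1. The median of the 8 was 0.31, against -0.01 over all genes.

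The values between the injured groups varied with single libraries. Injured VEGFR3 fl/fl replicate 1 had the highest summed member level of its group, 531 CPM against 369 and 419 CPM. Its macrophage marker sum was also the highest, 21075 CPM against 12631 and 15579 CPM. Most of that sum was Lyz2 (17618 CPM against 9118 and 12445 CPM). In that library Adgre1, Csf1r and Mrc1 were the lowest of the group, Cd68, C1qb and Cd14 the highest, and C1qa and C1qc between. Its pigment cell sum (3344 CPM against 5401 and 5771 CPM) and smooth muscle sum (1639 CPM against 3367 and 2175 CPM) were the lowest. Its fibroblast marker sum was the highest (18558 CPM against 10357 and 14621 CPM). Without injured replicate 1 Sqle and Cyp51 were called, with log2 differences of 0.67 and 0.61. The adjusted p of Sqle was under 0.05 in 10 of 18 alternatives. It was above 0.05 without Sham replicate 1 or 3 or without any 1 of the labelled knockout libraries, up to 0.127 (edgeR). In a fit of only the 6 libraries compared it was 0.107 (edgeR). With the Y-linked level as a covariate it was 0.243 (edgeR), at a log2 difference of 0.61. Among injured VEGFR3 fl/fl libraries only replicate 3 shared the low Y-linked level of the labelled knockouts. That covariate and the knockout label can therefore hardly be told apart.

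Against Sham, the injured libraries labelled VEGFR3 iLECko were lower in the same enzymes. This comparison shares the Sham libraries with the first, so its values are only set beside them. There 6 members were called lower, where 15% of all genes were, with log2 fold changes of -1.05 for Sqle, -0.98 for Lss, -0.97 for Fdft1, -0.94 for Fdps and -0.59 for Dhcr7, and with Hmgcs1 at 49.9% of its Sham mean. Cyp51 (-0.54, adjusted p = 0.00713, edgeR) missed the fold limit, and Mvd (-0.21, adjusted p = 0.314, edgeR) missed both. Fdps, Cyp51 and Dhcr7 no longer had an adjusted p under 0.05 with the Y-linked covariate (0.115, 0.285 and 0.0703, edgeR). Every Sham library had a higher Y-linked sum than every labelled knockout library, so here too covariate and group can hardly be told apart.

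**Figure D2:**
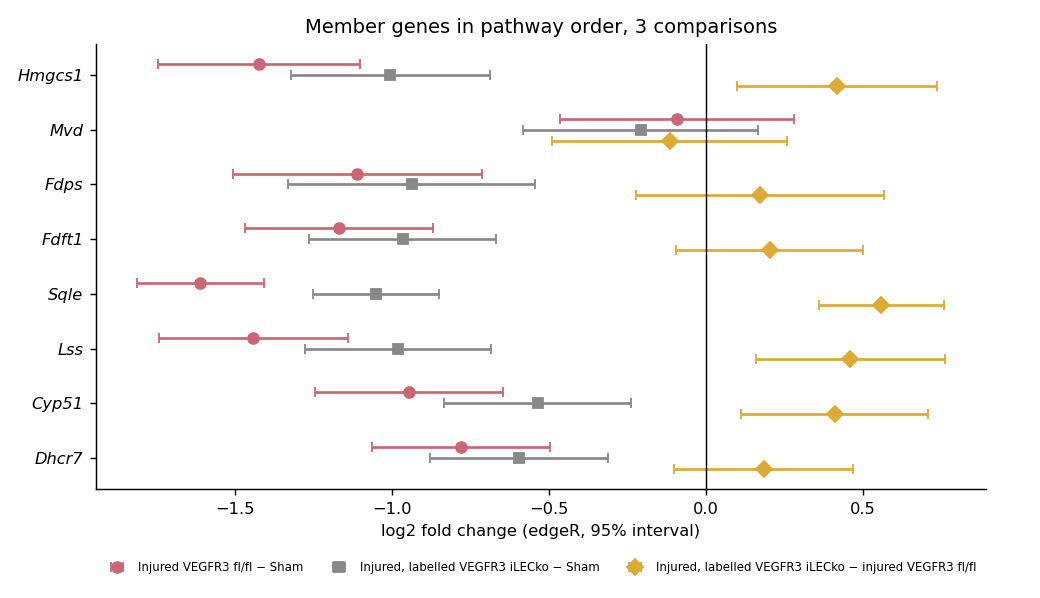
Log2 fold change of each of the 8 genes in 3 comparisons, with 95% intervals from edgeR. Circles (injured VEGFR3 fl/fl against Sham) and squares (labelled VEGFR3 iLECko against Sham) lie left of 0 with intervals clear of it for 7 genes, and diamonds (labelled VEGFR3 iLECko against injured VEGFR3 fl/fl) lie between -0.12 and 0.56.

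Of 11 other enzymes from acetyl-CoA to cholesterol, 8 were called lower after injury and 1 higher, where 17.5% and 22.1% of all genes were, with a median log2 fold change of -0.74. The largest falls were those of Idi1, the isopentenyl diphosphate isomerase (-1.69), and of Hsd17b7 (-1.51), Nsdhl (-1.44) and Msmo1 (-1.25), which act in removal of the C4 methyl groups. Idi1 went from 105, 116 and 101 CPM in Sham to 42.7, 26.9 and 30.3 CPM in injured VEGFR3 fl/fl, with the labelled knockouts at 50.8, 48.0 and 46.7 CPM. Its 3 groups did not overlap. The 1 gene called higher was Ebp, a sterol isomerase (0.81).

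In the labelled knockouts against injured VEGFR3 fl/fl, 1 of the 11 enzymes was called, Hsd17b7, at 12.2, 15.9 and 16.9 CPM against 8.68, 6.26 and 9.70 CPM (log2 difference 0.87, adjusted p = 0.0493, edgeR). Its adjusted p was under 0.05 in 5 of 18 alternatives, and above it when any library other than injured VEGFR3 fl/fl replicate 3 was left out (up to 0.165, edgeR). Idi1 had an adjusted p of 0.0151 by DESeq2, under the fold limit.

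Among 10 regulators, 3 were called lower after injury and 1 higher, where 17.5% and 22.1% of all genes were. Srebf2 went from 315, 311 and 311 CPM in Sham to 138, 123 and 118 CPM in injured VEGFR3 fl/fl (log2 fold change -1.31, adjusted p = 1.88e-06, edgeR), with the labelled knockouts between them at 177, 164 and 154 CPM. No library of 1 group reached into another. Insig1 (-1.47) and Insig2 (-0.95), which retain SREBP in the endoplasmic reticulum, were also called lower, and Nr1h3, the sterol sensor LXR alpha, was called higher (1.27). Between the injured groups none of the 10 was called by edgeR, with unadjusted p under 0.05 for 3 higher and 2 lower (12% and 12.5% of all genes). Srebf2 had a log2 difference of 0.38 (adjusted p = 0.0554, edgeR) and Insig1 0.59 (adjusted p = 0.0591, edgeR). By DESeq2 Insig1 was called higher (adjusted p = 0.00129), and Srebf2 had an adjusted p of 0.00037 under the fold limit.

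Of 8 genes of lipoprotein uptake and lysosomal release, 2 were called lower and 4 higher after injury, against the same shares of all genes, 17.5% and 22.1%. Npc1, the lysosomal cholesterol exporter, went from 81.0, 76.4 and 80.8 CPM in Sham to 193, 198 and 201 CPM in injured VEGFR3 fl/fl (log2 fold change 1.31, adjusted p = 5.25e-07, edgeR), and stood at 173, 171 and 157 CPM in the labelled knockouts, below every injured floxed library. Lipa, the lysosomal cholesteryl ester hydrolase (1.18), and Lrp1, a large endocytic receptor (0.91), were also called higher, and Vldlr, a receptor for triglyceride-rich lipoprotein, was called lower (-1.21). Between the injured groups none of the 8 was called by edgeR, with unadjusted p under 0.05 for 2 higher and 3 lower (12% and 12.5% of all genes).

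Genes of cholesterol export, storage and oxidation moved the other way, with 7 of 7 called higher after injury, where 22.1% of all genes tested were called higher. Abcg1 and Abca1, exporters of cholesterol and targets of LXR, had log2 fold changes of 4.27 and 2.36, Soat1, which esterifies cholesterol, 1.48, and Apoe, the carrier apolipoprotein, 1.33. Abcg1 went from 10.1, 7.23 and 11.7 CPM in Sham to 138, 218 and 204 CPM in injured VEGFR3 fl/fl and stood at 138, 108 and 92.3 CPM in the labelled knockouts. Between the injured groups 1 of the 7 was called lower, Cyp27a1, sterol 27-hydroxylase (log2 difference -0.83, adjusted p = 0.0399, edgeR), where 0.466% of all genes were, and its adjusted p was under 0.05 in 8 of 18 alternatives. Leaving out any library other than injured VEGFR3 fl/fl replicate 2 or 3 took it above 0.05 (up to 0.131, edgeR). DESeq2 also called Abcg1 (-0.73, adjusted p = 0.0205) and Apoe (-0.72, adjusted p = 0.00104) lower, and without injured VEGFR3 fl/fl replicate 3 edgeR called Apoe (-0.88, adjusted p = 0.0415).

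Of 9 genes in branches that use farnesyl diphosphate for other products, 1 was called lower after injury, where 17.5% of all genes were. It was Rabggta, a subunit of Rab geranylgeranyl transferase (-0.75). At an adjusted p under 0.05 by edgeR, without the fold limit, 4 of the 9 were lower, where 4269 of 15010 genes were. Of 9 genes of fatty acid synthesis and desaturation, 8 were called lower, where 17.5% of all genes were, with log2 fold changes of -1.50 for Elovl6, -1.21 for Scd1, -1.13 for Fads1 and -1.06 for Acly, which supplies cytosolic acetyl-CoA. Srebf1, whose protein acts mainly on fatty acid genes, had a log2 fold change of -0.02 (adjusted p = 0.922, edgeR). Between the injured groups 0 of the 9 fatty acid genes were called. All 9 were higher, where 7277 of 15010 genes were, with a median log2 difference of 0.27. At an unadjusted p under 0.05, 6 were higher, and 6 were higher without overlap, against 12% and 12.4% of all genes. Elovl6 alone had an adjusted p under 0.05 by edgeR, as it did in 10 of 18 alternatives. Of the 9 branch genes 0 were called there, and 0 had an unadjusted p under 0.05.

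**Figure D3:**
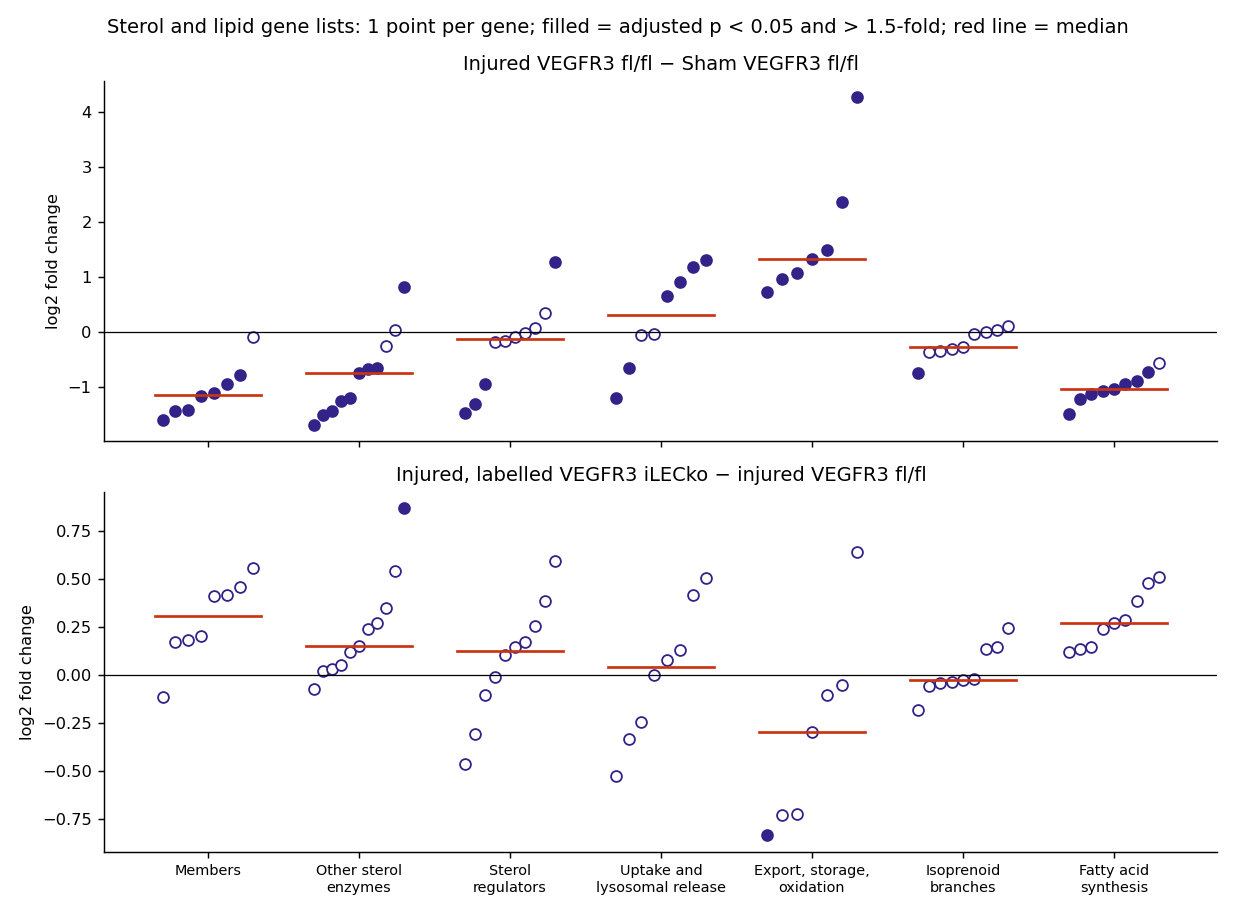
Log2 fold change of every gene in the 8 members and 6 lists of sterol and lipid metabolism, after injury (top) and between the injured groups (bottom). Filled points passed the call rule and red lines are medians, which after injury were -1.14 for the members and 1.33 for export, storage and oxidation.

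The mix of RNA in the iris changed with the same groups. Summed over the 8 members, levels were 985 to 1084 CPM in Sham, 369 to 531 CPM in injured VEGFR3 fl/fl and 535 to 566 CPM in the labelled knockouts. Over all genes tested, 17.5% were called lower after injury and 22.1% higher. Pigment cell markers fell in 6 of 6 genes, from 27482 to 29415 CPM in Sham to 3344 to 5771 CPM in injured VEGFR3 fl/fl. Smooth muscle markers were called lower in 5 of 6. Macrophage markers were called higher in 9 of 9, from 483 to 506 CPM in Sham to 12631 to 21075 CPM in injured VEGFR3 fl/fl, with 8185 to 10086 CPM in the labelled knockouts, and 0 of the 9 were at 0 in every library. T cell markers were called higher in 7 of 7, and Schwann cell markers, from 533 to 618 CPM in Sham, stood at 400 to 414 CPM in injured VEGFR3 fl/fl, with 4 of 8 called lower and 2 higher. The part of these shifts in the levels of the enzymes was not tested.

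**Figure D4:**
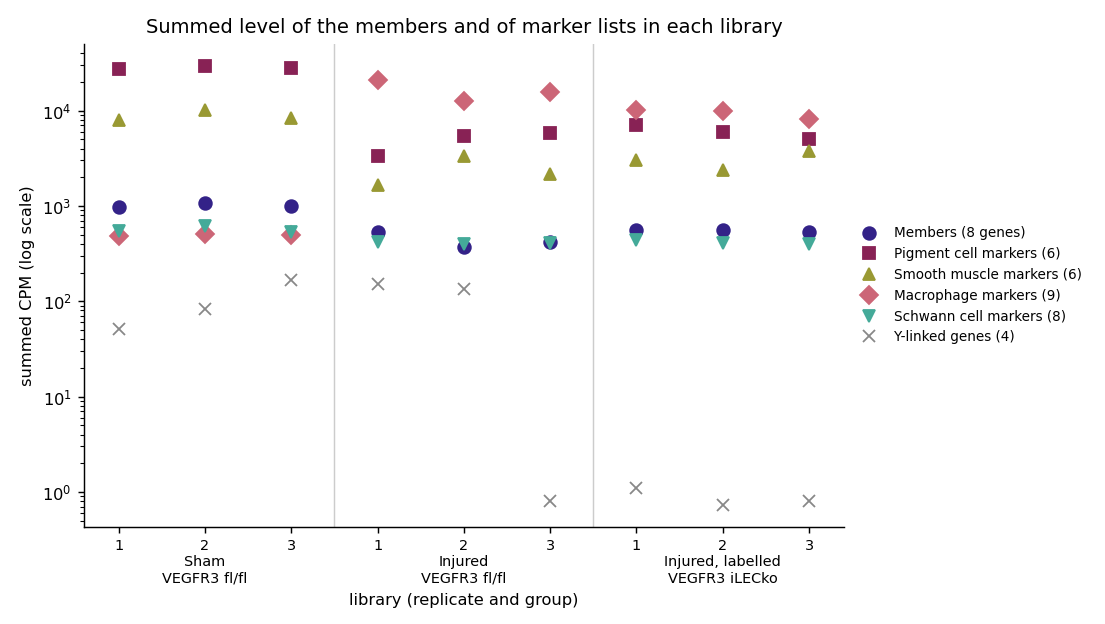
Summed CPM, on a log axis, of the 8 members and of 5 marker lists in each of the 9 libraries. Members, pigment cell and smooth muscle sums are lower and macrophage sums higher in every injured library than in every Sham library, and the Y-linked sum is near 1 CPM in 4 injured libraries.

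Over all 9 libraries, the genes outside the members with the most similar profile were Cadm4, Tceal3, Pdzrn3, Dtnb, Ssbp2, Gprasp1, Fam110b and Tceal1, among 10759 genes with a mean of at least 10 CPM. Likeness was the root mean square difference from the members' mean centred log2 CPM, 0.07 for Cadm4 to 0.12 for Tceal1. Among the members it was 0.09 for Fdft1 and 0.41 for Mvd. None of these 8 genes belongs to the sterol lists.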

How the data were processed

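RNA from 9 mouse iris libraries was read with single 50-base reads. According to the study's methods and the submitters' processing notes, the authors aligned reads with HISAT2 2.0.4 and Bowtie2 2.2.5 to mm10 and compared groups with DESeq2 1.4.5. The deposited files hold the estimated counts per gene that the authors made, of which 9.83% to 10.3% were not whole. The counting program and annotation are not given in the sources used here. A combined table repeats these values and adds the authors' averages and was not used.

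Groups were taken from titles and descriptions, since the genotype tags of some knockout libraries name other receptors. Counts were rounded, filtered with filterByExpr (15010 of 18349 genes kept, all 8 members among them), scaled by TMM and fitted with edgeR 4.0.16 over all 9 libraries (R 4.3.3, limma 3.58.1), with group as the only term. Called genes had a Benjamini-Hochberg adjusted p under 0.05 and more than 1.5-fold change. CPM uses the TMM scale. The test was also run on counts simulated with the same spread in every group. In these libraries replicates differed more in injured VEGFR3 fl/fl than in Sham, so that run does not check calls under unequal spread. DESeq2 1.42.0, other scalings and filters, a replicate block, a Y-linked covariate and leaving out each library were alternatives.

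Members and lists were chosen with earlier results of these data known. All members were named, with, of each sterol list, up to 4 called genes of largest change in either of the first 2 comparisons, Srebf2, and the 8 genes most like the members. Ebp, Srebf1 and the single macrophage markers were added after their values were seen. Some genes of these pathways are not reported here. Figures were drawn with Python.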

Additional observations from a re-analysis of the deposited data

How the results depend on the processing

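After injury, the count of members called lower was 7 under every alternative run. Between the injured groups, where 0 members were called, 1 was called with library size only and 1 with no fold threshold, and leaving out each library gave 0 to 2. Of the other enzymes, where 1 was called, 0 were called with library size only, no low-count filter, the Y-linked covariate or only the 6 libraries compared, and leaving out each library gave 0 to 1. Without injured VEGFR3 fl/fl replicate 1 the enzyme called was Idi1 (log2 difference 0.76, adjusted p = 0.0226, edgeR), not Hsd17b7 (adjusted p = 0.0685, edgeR). The log2 fold change of Mvd after injury ranged from -0.30 to 0.049 when 1 library was left out, and between the injured groups from -0.26 to 0.10. Abca1 between the injured groups, -0.10, became 0.11 with the Y-linked covariate and ranged from -0.33 to 0.30 without 1 library. Msmo1, 0.15 there, ranged from -0.0072 to 0.38 without 1 library. The cause was not tested.

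Replicate numbers did not pair libraries: same-numbered libraries had correlations of -0.378 to 0.113. With a replicate block, 0 members and 0 other enzymes were called between the injured groups, the adjusted p of Sqle was 0.0685 (edgeR), and calls over all genes went from 86 higher and 70 lower to 11 and 13. They were 344 and 282 with DESeq2, 0 and 2 with the Y-linked covariate and 0 and 0 in only the 6 libraries compared. Leaving out 1 library gave from 0 and 0 (labelled knockout replicate 2) to 174 and 107 (injured replicate 3) or 102 and 149 (injured replicate 2), with 3 and 6 without labelled knockout replicate 1, so the shares of all genes called between the injured groups vary likewise. Library size only moved the median of all genes after injury to -0.16 and the split of calls from 3323 higher and 2630 lower to 2783 and 3523.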
